A study of Zea mays with 16 samples.

Results

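Transcripts of 1 mm maize anthers were compared between *Mu killer* and *Mu* active plants on 4 arrays with 2 dyes, each of which held RNA of both lines. These 4 arrays carry 8 of the 16 labeled samples of the series, and the other 4 arrays hold the same lines at 2 mm. They were chosen by the anther length in the sample labels, so no measured value entered the choice. At this length anther cells still divide by mitosis, whereas meiosis takes place in anthers of about 2 mm. Both lines were siblings grown in the field from ears that segregated for *Mu killer*, in a background with many copies of the *Mu* transposon. *Mu* active plants came from spotted kernels and lacked the *Mu killer* locus. *Mu killer* plants came from bronze kernels and carried it. Neither line was treated, and each sample was a pool of anthers, with 4 biological replicates per line. Siblings of segregating ears can differ at loci other than *Mu killer*, so a difference between the lines cannot be told apart from linked or segregating differences between the plants. In whole anthers, fewer cells of a type and less RNA per cell cannot be told apart either.

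*MuDR* is the autonomous element of the Mutator family of maize. It holds *mudrA*, which encodes the transposase, and a second gene, *mudrB*, each read from its own terminal inverted repeat, called TIRA and TIRB. *Mu killer* is a rearranged *MuDR* copy with an inverted duplication, and it can silence *MuDR* elements elsewhere in the genome. The authors found this silencing incomplete in lines with many copies, where some *Mu killer* plants kept *mudrA* transcripts. In a silenced plant the kernels lose their spots, because the reporter element no longer leaves the pigment gene.

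Both colors of an array carry the same line name in the labels. The names of the Cy3 samples were used and their Cy5 partners were taken as the other line, so that *Mu killer* was in Cy3 in replicates 1 and 2 and in Cy5 in replicates 3 and 4. The opposite assignment would turn the direction of every ratio below and leave its size. Of 42034 maize probes, between 32697 and 37898 were well above background in a 1 mm sample, meaning more than 2.6 SD above it in the scanner software. Within an array the excess of such probes in *Mu killer* was 690, -1772, 211 and 261 in the order of the replicates. For the spiked control RNAs the slope of the measured on the intended log ratio was between 0.895 and 0.939 on these arrays. The array names few genes, and 4 of its identifiers matched a symbol in the reference gene table of assembly Zm-B73-REFERENCE-NAM-5.0. Most probes are therefore given by their transcript identifier (TC numbers or single cDNA sequences) without a gene name or function.

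One array stood apart from the others. Across the 32627 probes on in both lines, the log2 ratios between the lines (*Mu killer* relative to *Mu* active throughout) had a correlation of 0.36 between replicates 3 and 4, of 0.14 between replicate 2 and each of these, and of 0.09 between replicates 1 and 2. Replicate 1 had a correlation of -0.20 with both replicates 3 and 4. With arrays centered on their medians in place of loess, that between replicates 2 and 4 was 0.336. These are descriptions across probes, which are not independent replicates. Replicate 1 also had the opposite direction for 15 of 26 probes that separated the lines on all 2 mm arrays. A probe was taken as on where all 4 replicates of a line were well above background. With 3 such replicates it was on where its mean processed signal was higher than the median of all probes with 3. Results are therefore given array by array, and without replicate 1 where its absence changes them.

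The ratios between the lines were small for nearly all probes and large for few. The fitted log2 ratio had a median size of 0.12, and the SD over the 4 arrays had a median of 0.28. Of the 32627 probes tested, 455, or 1.39%, differed by 1.5-fold or more with an unadjusted p under 0.05 in limma, and these are referred to as called. In *Mu killer* 267 of them were higher (0.818% of the probes tested) and 188 were lower (0.576%). The median fold of the called probes was 1.71. A ratio of at least 2-fold was found for 124 of them and of at least 4-fold for 23, of which 13 were higher and 10 lower in *Mu killer*. After Benjamini-Hochberg adjustment over all probes tested, 2 probes remained, which is 0.00613%, and the next lowest adjusted p was 0.133. The split of the calls followed the scaling of the arrays, since 91 were higher and 620 lower when each array was centered on its median in place of loess. Under that centering the probes tested had a median log2 ratio of -0.083. Without replicate 1 the count was 1073, of which 478 were higher and 595 lower, and it held 298 of the 455 probes.

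**Figure D1:**
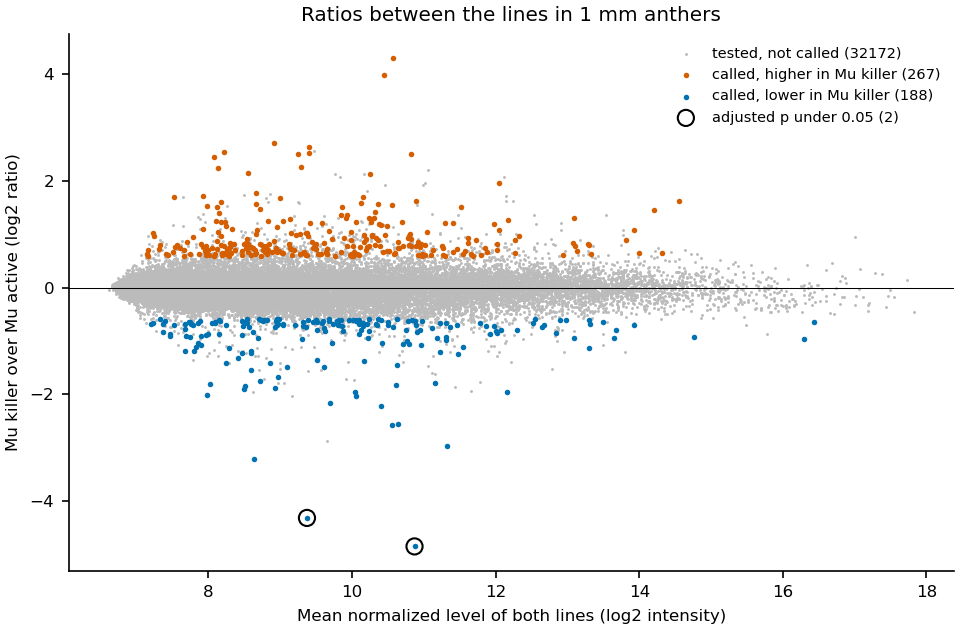
Fitted log2 ratio between the lines at 1 mm, positive where *Mu killer* was higher (vertical axis), against the mean normalized level of both lines in log2 intensity (horizontal axis) for the 32627 probes on in both lines. Points in color are the 267 higher and 188 lower called probes, and circles mark the 2 probes of TC313692 with an adjusted p under 0.05.

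Calls were found among probes of middle and high level. When the probes tested were put in 5 classes of equal size by mean level, 0 were called in the dimmest class (114 had an unadjusted p under 0.05 in limma), 29 (0.444%) in the next, then 110 (1.69%), 189 (2.90%) and 127 (1.95%) in the brightest. The background correction adds 50 units of intensity to each spot, which pulls ratios at low signal toward 0.

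The transcript TC313692 differed most between the lines, on both of its probes. Its gene is not named by the array or the reference table. For A_92_P012515 the processed signal of the scanner software was 16947, 11569, 16876 and 20274 in *Mu* active in the order of the replicates. It was 175.3, 241.6, 616.8 and 840.0 in *Mu killer*. The lowest *Mu* active sample thus lay far above the highest *Mu killer* sample. The log2 ratio over the 4 arrays of 1 mm was -4.85 (SE 0.154, adjusted p = 0.000532 from limma), a 28.9-fold lower level in *Mu killer*. It was between -5.78 and -4.04 on single arrays. The SE and p come from the joint fit, whose spread also uses the 2 mm arrays. The dye term of this probe was 0.53 (unadjusted p = 0.00205, adjusted p = 0.409 in limma), and its part in the ratio was not tested. For A_92_P014505 the processed signal was 5890, 4503, 7820 and 11457 in *Mu* active and 15.4, 53.4, 171.4 and 208.6 in *Mu killer*. Here too the lines did not overlap, and the probe was well above background in 3 of 4 *Mu killer* samples. Its log2 ratio over the 4 arrays of 1 mm was -4.32 (SE 0.245, adjusted p = 0.0123 from limma in the same joint fit). This probe missed the adjusted threshold without replicate 1 (log2 ratio -4.21) and without replicate 2 (log2 ratio -4.46). When the 1 mm arrays were fitted alone, neither probe passed it, though the log2 ratios stayed at -4.85 and -4.32. In 2 mm anthers, on other arrays, the first probe read between 13355 and 23392 in *Mu* active and between 131.5 and 855.1 in *Mu killer*, which is the same separation.

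**Figure D2:**
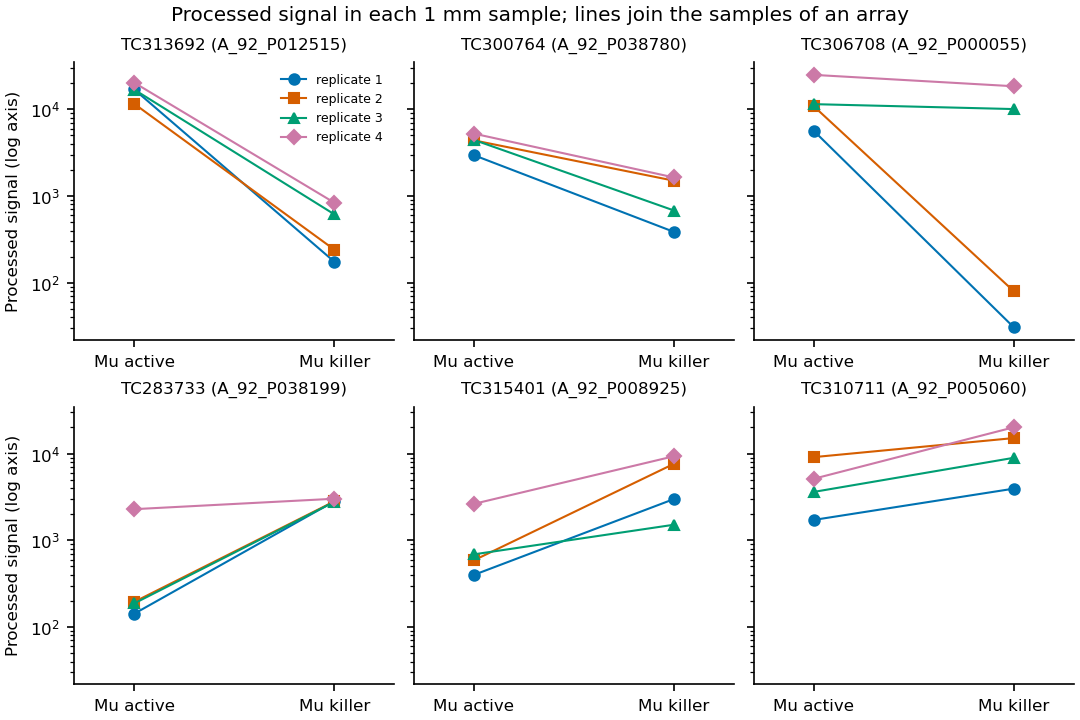
Processed signal on a log axis (vertical) in *Mu* active and *Mu killer* (horizontal) for 6 probes at 1 mm, with lines that join the samples of an array and a color for each replicate. For TC313692 the 4 *Mu killer* samples sit between 175.3 and 840.0, all below the *Mu* active samples, whereas for TC306708 *Mu killer* was low in replicates 1 and 2 alone and for TC283733 *Mu* active was high in replicate 4 alone.

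Called probes lower in *Mu killer* on every array were next led by transcripts whose arrays differed from each other. Of the probes tested, 4637 (14.2%) had the same direction on all 4 arrays, and of the 455 called probes 301 did, 188 higher and 113 lower. For TC306708 (A_92_P000055) the processed signal was 5647, 10845, 11466 and 24937 in *Mu* active and 30.7, 80.0, 10061 and 18438 in *Mu killer*. *Mu killer* was low in replicates 1 and 2 and lay within the *Mu* active range in replicates 3 and 4. The low *Mu killer* samples were those labeled with Cy3. The *Mu* active samples labeled with Cy3, replicates 3 and 4, were the highest of that line. The dye term of this probe had an unadjusted p of 0.018 and an adjusted p of 0.409 in limma. The part of the dye in the ratio was not tested. At 2 mm both lines were between 7439 and 31805 and overlapped. The fitted log2 ratio at 1 mm was -2.96 (SE 0.678, adjusted p = 0.739), and single arrays gave -5.43, -5.90, -0.16 and -0.37.

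TC291034 (A_92_P039736) read 11770, 5538, 9369 and 3792 in *Mu* active and 717.6, 370.8, 1383 and 2646 in *Mu killer*. All 4 *Mu killer* samples were below the lowest *Mu* active sample, with replicate 4 closest. The log2 ratio was -2.57 (SE 0.336, adjusted p = 0.728). TC300676 (A_92_P001360) read 1985, 2293, 4189 and 2353 in *Mu* active, and 91.6, 198.1, 3357 and 333.2 in *Mu killer*. Here replicate 3 of *Mu killer* lay within the *Mu* active range and the other 3 samples were far below it, for a log2 ratio of -2.16 (SE 0.230, adjusted p = 0.353). The dye term in limma had an unadjusted p of 0.00302 for TC291034 (adjusted 0.409) and 0.000298 for TC300676 (adjusted 0.363). Its part in these ratios was not tested.

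The ratio of TC300764 (A_92_P038780) varied less between arrays (SD 0.631) than those of the other 15 probes with the largest ratios, though more than that of the median called probe (SD 0.577). Its processed signal was 2956, 4384, 4436 and 5240 in *Mu* active and 386.1, 1502, 681.3 and 1638 in *Mu killer*, with no overlap. On single arrays the log2 ratio was -2.51, -1.40, -2.52 and -1.44, with a fitted value of -1.97 (SE 0.275, adjusted p = 0.728), or 3.91-fold lower. At 2 mm *Mu killer* was again lower on each array, with log2 ratios from -2.16 to -0.83. The lines also did not overlap for TC280434 (A_92_P032506), at 13390 to 20032 in *Mu* active and 1615 to 7500 in *Mu killer*, nor for TC295738 (A_92_P014108), at 719.0 to 1816 and 188.3 to 301.6. Their log2 ratios were -1.96 (SE 0.507) and -1.88 (SE 0.263), and neither passed the adjusted threshold. TC295738 was least reduced in replicate 4, where *Mu* active had its lowest value. Its dye term had an unadjusted p of 0.0147 and an adjusted p of 0.409 in limma.

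Among the 8 called probes that were higher in *Mu killer* by most on every array, single *Mu* active samples were often high. *Mu killer* was even for TC283733 and varied more for the others. TC283733 (A_92_P038199) read 2814, 2802, 2766 and 3013 in *Mu killer* and 142.3, 194.9, 187.3 and 2285 in *Mu* active. The *Mu* active sample of replicate 4 was near the *Mu killer* level, and the other 3 were far below. The log2 ratio was 2.53 (SE 0.511, adjusted p = 0.739), with single arrays at 3.36, 3.21, 3.26 and 0.27. TC283856 (A_92_P006606) had the same order, with 2005, 3024, 1748 and 2077 in *Mu killer* and 163.8, 172.2, 178.6 and 1840 in *Mu* active. So did TC310812 (A_92_P025160), with 1574, 1547, 2791 and 4325 in *Mu killer* and 60.8, 91.2, 138.0 and 1456 in *Mu* active. The largest fitted ratio of the 8 was that of TC310812, 2.70 (SE 0.650, adjusted p = 0.739). The dye term in limma had an unadjusted p of 0.0103 for TC283733, 0.00984 for TC283856 and 0.0276 for TC310812. Its adjusted p was at least 0.409 for each, and the part of the dye was not tested.

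The cDNA sequence AW261398 (A_92_P023303) had high and low samples at both stages. At 1 mm it read 761.6, 1591, 862.4 and 2075 in *Mu killer* and 21.8, 12.7, 8.2 and 881.3 in *Mu* active. At 2 mm *Mu killer* read 1197, 1146, 29.9 and 51.6 and *Mu* active 7.3, 14.2, 1259 and 1399. The 2 mm ratio was thus high in replicates 1 and 2 and turned in replicates 3 and 4, so that at this stage all Cy3 samples were high and all Cy5 samples low. TC310812 had the same order of dyes at 2 mm. The dye term of AW261398 had an unadjusted p of 0.0145 and an adjusted p of 0.409 in limma, and its part in the ratio was not tested. Fitted log2 ratios were 2.54 at 1 mm (SE 0.639) and 0.52 at 2 mm (SE 0.639), and their difference did not pass the test in limma (unadjusted p = 0.0619, adjusted p = 1.0).

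For TC302162 (A_92_P034662) the *Mu* active sample of replicate 3 was high, at 1634 against 93.9, 99.2 and 178.4, and *Mu killer* was between 1792 and 5646, for a ratio of 2.64 on the log2 scale (SE 0.565). For TC293031 (A_92_P008366) and TC309891 (A_92_P025411) replicate 1 of *Mu killer* was low, with the latter at 96.7, against 1291 to 3677 and 2022 to 3401 in its other replicates. On replicate 1 both lines were dim for these transcripts, with log2 ratios of 0.14 and 0.20. For TC293031 the *Mu* active sample of replicate 4 was high, at 1161 against 8.3 to 21.3 in the other replicates. Their fitted ratios were 2.23 (SE 0.835) and 2.14 (SE 0.686), and both lost the call when replicate 2, 3 or 4 was left out. All 16 of these largest ratios were called without replicate 1. TC315401 (A_92_P008925) differed by at least 2-fold on every array, with 2990, 7618, 1512 and 9311 in *Mu killer* and 399.6, 588.4, 689.0 and 2632 in *Mu* active. Its fitted log2 ratio was 2.12 (SE 0.418, adjusted p = 0.739).

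**Figure D3:**
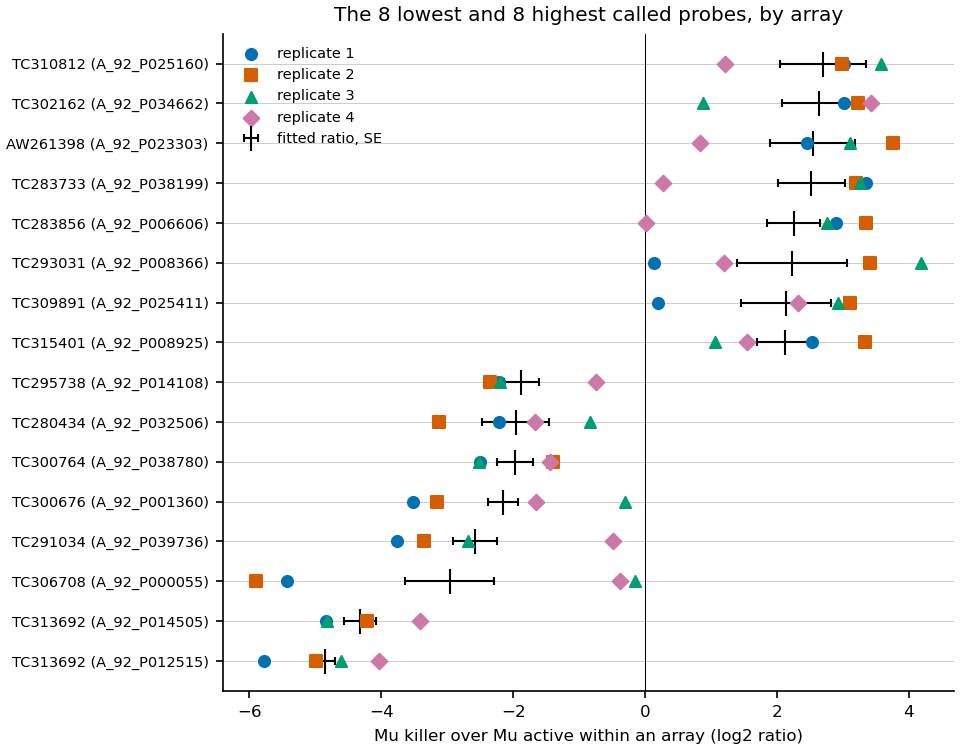
Log2 ratio between the lines, positive where *Mu killer* was higher (horizontal axis), on each of the 4 arrays for the 8 lowest and 8 highest called probes with the same direction on all arrays (rows), with the fitted ratio and its SE as black bars. The arrays lie close together for TC313692 and TC300764 and far apart for TC306708, from -5.90 to -0.16.

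Called probes that did not keep 1 direction on all arrays were named where their fitted log2 ratio was above 2.70 (TC310812) or below -2.96 (TC306708). There were 3 of them, chosen after their values were seen. Uneven called probes with smaller ratios, such as A_92_P011907 of TC283353 (2.51), were not part of this choice. TC311057 (A_92_P028552) read 11686, 9916, 9354 and 15723 in *Mu killer* and 19.4, 41.8, 11590 and 50.6 in *Mu* active. The *Mu* active sample of replicate 3 was at the *Mu killer* level, and the other 3 were near background, for a log2 ratio of 4.30 (SE 1.17). TC301884 (A_92_P021448) read between 6205 and 13409 in *Mu killer*, and 29.9, 81.4, 63.3 and 31225 in *Mu* active, for a ratio of 3.98 (SE 1.17). Its dye term had an unadjusted p of 0.0184 and an adjusted p of 0.409 in limma. TC281981 (A_92_P029185) was near background in *Mu killer*, at 21.4 to 89.5, and read 4136, 4966, 21.3 and 6953 in *Mu* active, for a ratio of -3.21 (SE 0.798). Each was at 1 of 2 distant levels in every sample. At 2 mm all 3 probes had high and low samples in both lines, and the adjusted p at 1 mm was 0.739 for each.

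Differences of that kind were frequent. A ratio of at least 4-fold was found on at least 1 array for 722 of the probes tested, or 2.21%. Of these probes, 107 were called and 568 had a log2 ratio under 0.5 in size on another array. For 108 probes the ratio was at least 4-fold in each direction on different arrays. On all 4 arrays, 2 probes were at least 4-fold lower in *Mu killer*, those of TC313692, and 0 were at least 4-fold higher. At 2-fold these numbers were 3 and 7.

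The 2 mm arrays gave a choice of probes that did not use the 1 mm ratios, though the probes had to be on in both lines at 1 mm. Of the probes tested at 1 mm, 26 differed at least 2-fold in 1 direction on all 4 arrays of 2 mm. This choice was made after the values had been seen. At 1 mm, 22 of the 26 had the 2 mm direction in replicate 2, 25 in replicate 3 and 25 in replicate 4. In replicate 1, 11 had it and 15 had the opposite direction, 11 of these by at least 2-fold. In the other replicates 0 were opposite by at least 2-fold. Of the 11 that kept the 2 mm direction in replicate 1, 7 did so by at least 2-fold. The replicate 1 samples were thus mixed for these transcripts, some against and some with the lines they were assigned to.

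At least 4-fold, 6 probes were left. The 2 probes of TC313692 kept their direction in replicate 1, and the other 4 were opposite there. TC300191 (A_92_P015850) read 15152, 651.7, 956.0 and 1501 in *Mu killer* and 518.8, 10452, 14378 and 20456 in *Mu* active. Replicate 1 had exchanged levels, and the other 3 replicates did not overlap between the lines. At 2 mm the same probe read 441.7 to 1380 in *Mu killer* and 11944 to 17980 in *Mu* active. CA398577 (A_92_P027734) read 153.0, 6999, 7152 and 9583 in *Mu killer* and 7032, 242.9, 189.7 and 235.3 in *Mu* active, again with replicate 1 exchanged. TC310452 (A_92_P010588) and TC280479 (A_92_P015276) gave log2 ratios of -2.74 and 2.21 in replicate 1, against 2.22 to 2.55 and -3.39 to -2.55 in the others. None of the 4 was called with all arrays, and their fitted ratios were between -1.71 and 2.07. Without replicate 1, TC300191 (-3.76) and TC310452 (2.38) passed the adjusted threshold, and so did TC309999 (A_92_P026853), at 1.81, beside A_92_P012515 of TC313692. The 4 *MuDR* probes were lower in *Mu killer* on replicate 1, with log2 ratios from -1.045 to -0.29. *Mu killer* was in Cy3 on this array, where a positive dye term, Cy5 over Cy3, lowers the ratio. The dye term was 0.21 for MUDRA, 0.27 for MUDRA-21 and 0.24 for MUDRB, and -0.16 for MUDR-TIRA. Its part in the replicate 1 ratios was not tested. Over the 4 arrays of 1 mm the *MuDR* probes separated the lines little, with fitted ratios from -0.58 to 0.01 and none called. What sets replicate 1 apart was not tested.

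**Figure D4:**
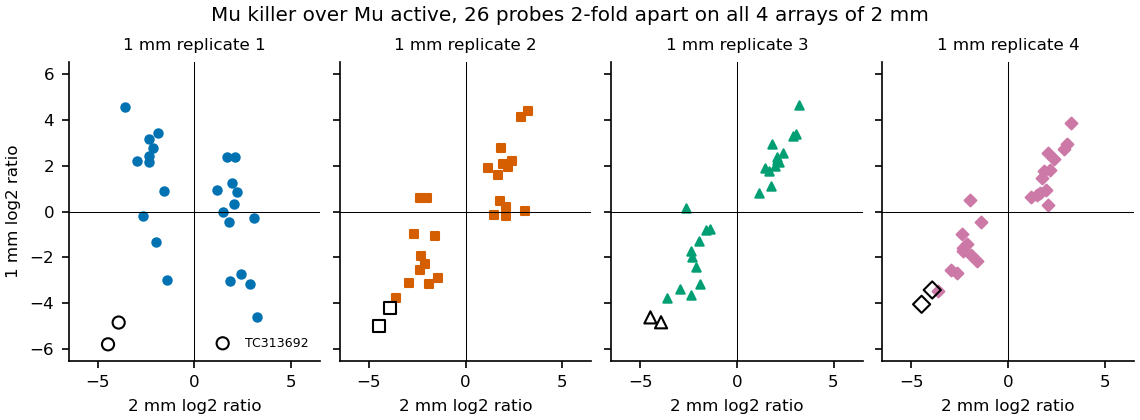
Log2 ratio between the lines on each 1 mm array, positive where *Mu killer* was higher (vertical axes, 1 panel per replicate) against the fitted 2 mm log2 ratio (horizontal axes) for the 26 probes that differed at least 2-fold on all 4 arrays of 2 mm. Replicates 2, 3 and 4 follow the 2 mm ratio, whereas in replicate 1 15 of 26 probes have the opposite direction, and TC313692 (open symbols) is low on every array.

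The difference between the lines was also compared between the stages. Over 30638 probes on in both lines at both stages, 0 passed the adjusted threshold for a stage difference in limma and 786, or 2.57%, had an unadjusted p under 0.05. Of the 455 called probes, 439 were among them, and 393 of these had the same direction at 2 mm. The share of all 30638 probes with 1 direction at both stages was not taken. The 393 therefore have no background to be set against and are a description. Both stages were fitted with a common spread and dye term. For TC300676 the log2 ratio was -2.16 at 1 mm and -0.63 at 2 mm (unadjusted p = 0.00252 for the difference).

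The 4 *MuDR* probes were well above background in all 8 samples. MUDRB (A_92_P034510), named for *mudrB*, read 983.0, 1159, 927.1 and 1045 in *Mu* active and 410.3, 846.8, 619.2 and 990.3 in *Mu killer*. It was lower in *Mu killer* on each array, by most in replicate 1, and the lines overlapped. The log2 ratio was -0.50 (SE 0.159, unadjusted p = 0.0165, adjusted p = 0.739 from limma), below a fold of 1.5. Without replicate 2 it was -0.66 and with arrays centered on their medians -0.78, and both would be called. Without replicate 1 it was -0.38 and without replicate 3 -0.40, both below a fold of 1.5. At 2 mm the ratio of MUDRB was 0.11 (SE 0.159), lower on 2 arrays and higher on 2. The unadjusted p for the difference between the stages was 0.0300 in limma, and it did not pass the adjusted threshold. MUDR-TIRA (A_92_P012404), for the end of the element from which *mudrA* is read, read 1633, 1867, 3839 and 1446 in *Mu* active and 982.8, 2074, 1058 and 1448 in *Mu killer*. Its lower mean at 1 mm rested on replicate 3, with a log2 ratio of -1.77 there. The fitted value was -0.58 (SE 0.330), and -0.17 without that array. At 2 mm MUDR-TIRA was lower in *Mu killer* on each array, from -1.51 to -0.43. Its fitted 2 mm ratio was -0.96 (SE 0.330, unadjusted p = 0.0241, adjusted p = 0.295 from limma). MUDRA-21, MUDRA and MUDRB were not lower at 2 mm, with fitted ratios of 0.30, 0.20 and 0.11. MUDRA-21 (A_92_P019862) read 501.9 to 722.8 in *Mu* active and 340.3 to 807.8 in *Mu killer*, and MUDRA (A_92_P031891) 524.0 to 593.6 and 402.3 to 784.3. The log2 ratios of the transposase probes, -0.27 (SE 0.140) and 0.01 (SE 0.109), did not pass the test. Their dye terms had unadjusted p of 0.0288 and 0.0287 in limma, with an adjusted p of 0.410 for each. The part of the dye in these ratios was not tested. *Mu killer* also carries TIRA and *mudrA* sequence. The authors also state that every maize line holds defective elements related to *MuDR*, which are transcribed. Whether these probes read transcripts of *Mu killer* or of such elements was not tested.

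The array also names genes of meiosis and of cohesin, the protein ring that holds sister chromatids together. They were chosen as a group after the identifiers had been read. The 17 probes stood for 5 names, AM1, ZmRAD21, ZmSMC1, ZmSMC3 and ZmSGO1. Of these, 16 were on in both lines and 0 were called, beside 1.39% of all probes tested. Their log2 ratios were between -0.19 and 0.11 with a median of -0.014, against a median of -0.0014 over all probes tested, and the lowest unadjusted p was 0.205. Centered on the array medians the range was -0.43 to 0.17, and with the scanner software's own ratio it was -0.575 to 0.299.

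*Ameiotic1* (AM1), which is needed for maize cells to enter meiosis, had 3 probes. The brightest, A_92_P001166, read 222.1, 291.8, 896.9 and 996.6 in *Mu* active and 471.8, 322.2, 617.4 and 669.0 in *Mu killer*. Replicates 3 and 4 were higher than replicates 1 and 2 in both lines, and the ratio was 0.01 (SE 0.177). SMC3 and SMC1 form the 2 long arms of the ring. The brightest ZmSMC3 probe (A_92_P034647) read 5558, 6948, 5375 and 8788 in *Mu* active and 7722, 6316, 4461 and 6158 in *Mu killer*, with a ratio of -0.12 (SE 0.112). The ZmSMC1 probe A_92_P041560 varied most, with log2 ratios of 0.59, 0.31, -0.64 and -1.04, and its fitted ratio was -0.19 (SE 0.177). RAD21 proteins close the ring, and the 7 ZmRAD21 probes were dim, with ratios between -0.04 and 0.08. Shugoshin, which guards cohesin at the centromeres in meiosis, had 1 probe (ZmSGO1, A_92_P014134), with a ratio of 0.03 (SE 0.0708). One ZmSMC3 probe, A_92_P008258, was higher in *Mu killer* on each array by a small amount, with ratios from 0.08 to 0.14. The adjusted p was at least 0.746 for the 16 probes tested.

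**Figure D5:**
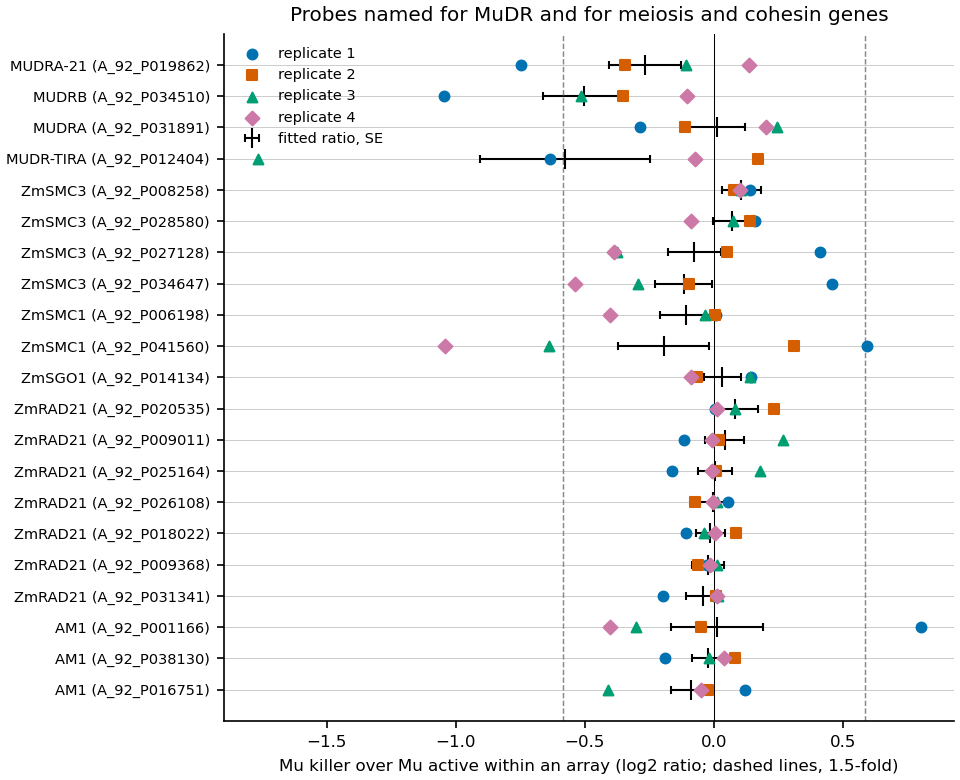
Log2 ratio between the lines, positive where *Mu killer* was higher (horizontal axis), on each 1 mm array for the probes named for *MuDR* and for meiosis and cohesin genes (rows), with the fitted ratio and its SE as black bars and dashed lines at a fold of 1.5. All fitted ratios lie inside the dashed lines, and the widest spreads are those of MUDR-TIRA and ZmSMC1.

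Separate probes for a transcript gave a check within the arrays. Of 1509 identifiers with exactly 2 probes tested, 35 had a call, and both probes were called for 3 of them, TC313692, TC310711 and TC283353. In 27 of the 32 pairs with 1 call the other probe had the same direction. Among the 1474 pairs without a call, 901 had 1 direction, or 61.1%. TC310711 was higher in *Mu killer* on every array with both probes. The brighter one, A_92_P005060, read 3939, 15080, 8930 and 20080 in *Mu killer* and 1717, 9093, 3612 and 5121 in *Mu* active. The levels of the lines overlapped across arrays, and the ratio within arrays was 1.18 (SE 0.259, adjusted p = 0.739). The dimmer probe, A_92_P041454, had a ratio of 0.78 (SE 0.185). TC283353 (A_92_P011907) read 2903, 3212, 3732 and 1599 in *Mu killer* and 822.1, 49.5, 77.9 and 2301 in *Mu* active, so replicate 4 went the other way. Its ratio was 2.51 (SE 0.888), and that of A_92_P007033 was 0.96 (SE 0.306). Neither probe was called without replicate 2 or without replicate 3.

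TC292469 had the most probes called, 4 of 8, all higher in *Mu killer*, and is named for that count. For A_92_P015374 the processed signal was 1808, 5321, 4746 and 5980 in *Mu killer* and 2018, 2109, 2419 and 2375 in *Mu* active. *Mu* active was even, and *Mu killer* was higher in replicates 2, 3 and 4 and not in replicate 1. The ratio was 0.78 (SE 0.224, adjusted p = 0.739) with all arrays and 1.09 without replicate 1. The other 3 called probes had ratios between 0.73 and 0.97, and without replicate 2 only A_92_P009339 of the 4 was called. The 4 probes not called were at 0.02, 0.05, 0.16 and 0.73. The probe at 0.73 (A_92_P038661, unadjusted p = 0.0535 in limma) missed the call by its p alone and was close to the called A_92_P021461. Those at 0.02, 0.05 and 0.16 lay below the rest, so the probes for this identifier did not all behave alike.

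Calls of presence differed at low signal. Either line or both had 34335 probes on, of which 700 (2.04%) were on in *Mu killer* alone and 1008 (2.94%) in *Mu* active alone. These counts followed single arrays, with 648 and 1848 without replicate 1 and 1548 and 891 without replicate 2, where all 3 other replicates were needed. Few of them were seen in all samples of 1 line and in no sample of the other. CF022491 (A_92_P003979) was well above background in the 4 *Mu killer* samples, at 13.0 to 20.1, and in no *Mu* active sample, at 6.5 to 19.6. TC284978 (A_92_P011689) was so in the 4 *Mu* active samples, at 6.4 to 30.5, and in no *Mu killer* sample, at 4.6 to 11.9. These levels overlapped and were near background. The fitted log2 ratio of CF022491 was 0.11 (SE 0.0604) and that of TC284978 was -0.06 (SE 0.0653), the latter lower on 2 of 4 arrays.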

How the data were processed

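RNA of both lines was labeled with Cy3 or Cy5 and hybridized together, 1 array per replicate. The deposited scanner output, made by the authors with Agilent Feature Extraction 9.5.3.1, gives mean and background intensity per color, a processed signal, the mark for well above background, and a log10 ratio with Cy5 over Cy3. The authors' table of normalized intensity was used as an alternative only. Its columns follow the scanner output in mirrored replicate order and the other color, with the same line in each case. Each array held 43451 spots, including 1264 positive and 153 negative controls, which were left out after background correction. Between 4 and 13 outlier spots per 1 mm array were left out, and 0 maize spots were saturated. Precision is limited by the number of arrays.

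Mean intensities were corrected with limma 3.58.1 (R 4.3.3) by normexp with an offset of 50 and normalized by loess within arrays. All 8 arrays were fitted together, with a ratio for each stage and a dye effect for each probe, the array being the block, and variances were moderated by empirical Bayes. Calls needed a 1.5-fold difference and a p under 0.05, among probes on in both lines. The 1 mm arrays shared a slide. The fit was tested on simulated ratios. Summaries used Python 3.11.15, numpy 2.4.6, pandas 2.3.3 and matplotlib 3.10.9.

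Probes were named by a rule. It took the *MuDR* probes, the 8 largest called ratios in each direction with 1 direction on all arrays, probes past the adjusted threshold, On/Off probes seen in all samples of 1 line and none of the other, identifiers with all probes called, and called members of gene lists. Of these lists, the array names ameiotic1 and *smc3* beside *MuDR*, and neither was called. The members and lists were chosen with earlier results of these data known. Alternatives covered background correction, normalization, the authors' log ratio and table, the dim filter, the dye term, the block, outlier spots, on calls and each replicate left out.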

Additional observations from a re-analysis of the deposited data

Results flagged for a closer look

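For 14 of 60 groups of 4 array values examined, 1 array lay far from the other 3 by Dixon's criterion, which chance gives in about 1 of 20 groups. Several of these probes had been named for a large or an uneven ratio, so the groups are no random choice. Replicate 1 was the distant array in 8 of the 14. Its log2 ratio, positive where *Mu killer* was higher, was 4.54 for TC300191, 2.21 for TC280479, -2.74 for TC310452 and -4.60 for CA398577, where the other arrays had the opposite direction. For TC292469 it was -0.51 on A_92_P021461 and -0.58 on A_92_P038661. It was -0.20 for the ZmRAD21 probe A_92_P031341 and -0.27 for TC284978, both of which were dim. Replicate 3 was distant for TC302162 (0.87) and for TC311057 (-0.31), which were higher in *Mu killer* on the other arrays. Replicate 4 was distant for TC283733 (0.27), TC301884 (-1.49), TC295738 (-0.75) and the ZmSMC1 probe A_92_P006198 (-0.40).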

How the results depend on the processing

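The 16 probes with the largest called ratios kept their direction under every alternative, and between 14 and 16 of them passed the fold and the unadjusted p. The count of called probes moved more, from 455 to 758 with an offset of 0, 1096 with plain subtraction, 711 with median centering, 1032 with the authors' log ratio and 687 with the 1 mm arrays alone. With 1 replicate left out the count was between 450 (without replicate 2) and 1073 (without replicate 1), and the probes past the adjusted threshold numbered between 1 and 4. That number was 1 with the authors' log ratio, 1 with probes well above background in all 8 samples and 0 with the 1 mm arrays alone. Of the 455 calls, 298 were called without replicate 1, and 227 without replicate 2. With no replicate block, where the colors were fitted as separate samples, 421 probes were called and 2 passed the adjusted threshold, and 304 of the 455 calls were among the 421. The stage difference had 0 probes past the adjusted threshold in each fit run.

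Probes on in *Mu killer* alone numbered 1227 when all 4 replicates were needed, against 1222 in *Mu* active alone, and 4 when off meant seen in no replicate, and between 648 and 1548 with 1 replicate left out. Probes on in *Mu* active alone numbered 4 under the second rule and between 891 and 1848 with 1 replicate left out. The mean difference between *Mu killer* and *Mu* active in probes well above background was -152 per array (SD 1100, n = 4, exact permutation test, two-sided p = 1.0). It turned to 70.8 with a cutoff of 5 SD, and with 1 replicate left out it was between -433 and 387, the latter without replicate 2. The smallest p that 4 arrays allow is 0.125. Levels near background limit the On/Off calls, and the causes of these shifts were not tested.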
